A study of Homo sapiens with 40 samples.

Results

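The complement components and receptors described here are C1QA, C1QB, C1QC, C2, C3, CFD, CFP, C3AR1, C5AR1 and VSIG4. They were found by matching the Ensembl ID of each row of the deposited expression table to its symbol, which gave 10 genes of 60504. RNA was measured in 40 libraries of microglia-like cells that were differentiated from the human embryonic stem cell line H9 and from clones of it edited with CRISPR/Cas9. The study asked how variants tied to Alzheimer's disease change expression in these cells. The groups are 8 TREM2-KO, 7 TREM2-R47H, 7 SORL1-KO, 7 SORL1-A528T, 2 CD33 SNP, 2 INPP5D SNP and 7 WT libraries. WT is H9 without such an edit, and each edit is homozygous per the labels' protocol. TREM2-KO lacks the microglial lipid receptor TREM2 and TREM2-R47H carries a missense variant of it. The SORL1 groups carry edits of a sorting receptor, a knockout and the A528T missense variant. The protocol names a premature-stop variant of SORL1 and not how the knockout was otherwise made. The CD33 SNP and INPP5D SNP groups carry disease-associated alleles at a sialic acid receptor and at a lipid phosphatase, and H9 itself is heterozygous at the INPP5D site. All groups share the H9 background and the same microglial differentiation of 28 days. It used IL-34, TGF-beta1 and M-CSF at 100, 50 and 25 ng/mL and ended with CD200 and CX3CL1 in the medium. The labels do not say how many clones stand behind a group or whether the libraries of a group are separate cultures, so p-values measure the spread between libraries, which may be technical.

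Complement is a cascade of blood and tissue proteins that tag targets for uptake or lysis. C1q, a complex of the chains encoded by C1QA, C1QB and C1QC, starts the classical pathway when it binds a surface, and the protease made from C2 joins the enzyme that cleaves C3. The alternative pathway also cleaves C3, by an enzyme that the protease factor D (CFD) helps to form and properdin (CFP) holds together. The fragments C3a and C5a signal through C3AR1 and C5AR1, and VSIG4 is a macrophage receptor that takes up particles coated with C3b and iC3b. In the brain, microglia are a main source of C1q, and C1q and C3 are known for marking synapses for removal by microglia.

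C1QA, CFP and VSIG4 were among the genes that were lower in TREM2-R47H cells, and the sequences upstream of their starts are shown to give that shared change its genomic context. They are RefSeq windows on GRCh38.p14, each written along the strand of its gene and limited to bases before the start that lie in no exon of the same gene in GENCODE 29. The C1QA stretch is chr1:22636213-22636462 on the plus strand, the CFP stretch is chrX:47630306-47630555 on the minus strand, and the VSIG4 stretch is chrX:66040126-66040330 on the minus strand. Capitals mark matches to 3 motifs searched on both strands with overlaps allowed: GGAAGT (the core of ETS factors such as PU.1), TGANTCA (AP-1) and CACGTG (E-box).
C1QA: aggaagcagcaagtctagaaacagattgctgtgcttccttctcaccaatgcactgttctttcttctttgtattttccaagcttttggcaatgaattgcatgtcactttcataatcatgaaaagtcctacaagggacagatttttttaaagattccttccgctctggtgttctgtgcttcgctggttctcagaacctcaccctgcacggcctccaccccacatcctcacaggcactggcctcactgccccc
CFP: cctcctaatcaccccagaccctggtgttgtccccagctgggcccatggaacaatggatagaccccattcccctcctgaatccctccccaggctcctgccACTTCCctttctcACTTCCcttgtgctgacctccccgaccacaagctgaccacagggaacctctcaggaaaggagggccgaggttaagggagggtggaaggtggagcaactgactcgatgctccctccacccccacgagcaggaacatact
VSIG4: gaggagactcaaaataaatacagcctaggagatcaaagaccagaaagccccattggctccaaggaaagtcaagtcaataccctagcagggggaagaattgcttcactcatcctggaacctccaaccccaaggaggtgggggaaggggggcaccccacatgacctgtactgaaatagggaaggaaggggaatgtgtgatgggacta
The CFP stretch held 2 matches to the ETS core, both as the reverse complement ACTTCC, and the other printed stretches held no match to any of the 3 motifs. The whole 250-base VSIG4 window, whose end lies in exons, held 1 ETS core. A second C1QA window, chr1:22636378-22636627, and a second CFP window, chrX:47629931-47630180, both partly in exons and not printed, held 2 and 1. In the RefSeq table, GGAAGT occurred in 19.5% of 35116 windows of the same 250 bases before a start, TGANTCA in 6.57% and CACGTG in 6.34%. The table covered 8 of the 10 genes, and C1QC and C3 were not among them.

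Levels are given as TPM, a share of all transcripts corrected for gene length. The 10 genes spanned more than 100-fold in WT cells and fell into an abundant and a scarce group. By mean TPM in WT libraries, C1QC ranked 60 among 60504 genes, C1QB 115, C3 132, C1QA 167, VSIG4 354, C3AR1 500, C5AR1 2692, CFP 7419, CFD 8447 and C2 9023. C1QC averaged 2039 ± 190 TPM (SD, n = 7) in WT libraries, against 8.10 ± 2.90 TPM (SD, n = 7) for C2. The genes sit at several places in the genome (GENCODE 29, GRCh38). C1QA, C1QC and C1QB lie side by side on the plus strand of chromosome 1, at 22636506 to 22639608, 22643630 to 22648110 and 22652762 to 22661538. C2 lies in the major histocompatibility region on chromosome 6 (31897785 to 31945672), C3, CFD and C5AR1 lie on chromosome 19 (6677704 to 6730562, 859643 to 863630 and 47290023 to 47322066), C3AR1 on chromosome 12 (8058302 to 8066471), and CFP and VSIG4 on chromosome X (47623172 to 47630305 and 66021738 to 66040125). C2 overlaps CFB on the same strand, which stayed at or below 1.16 TPM in every library, and C3 overlaps GPR108 and a sense-intronic RNA, so reads of these neighbours could be split differently by other counting.

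**Figure D1:**
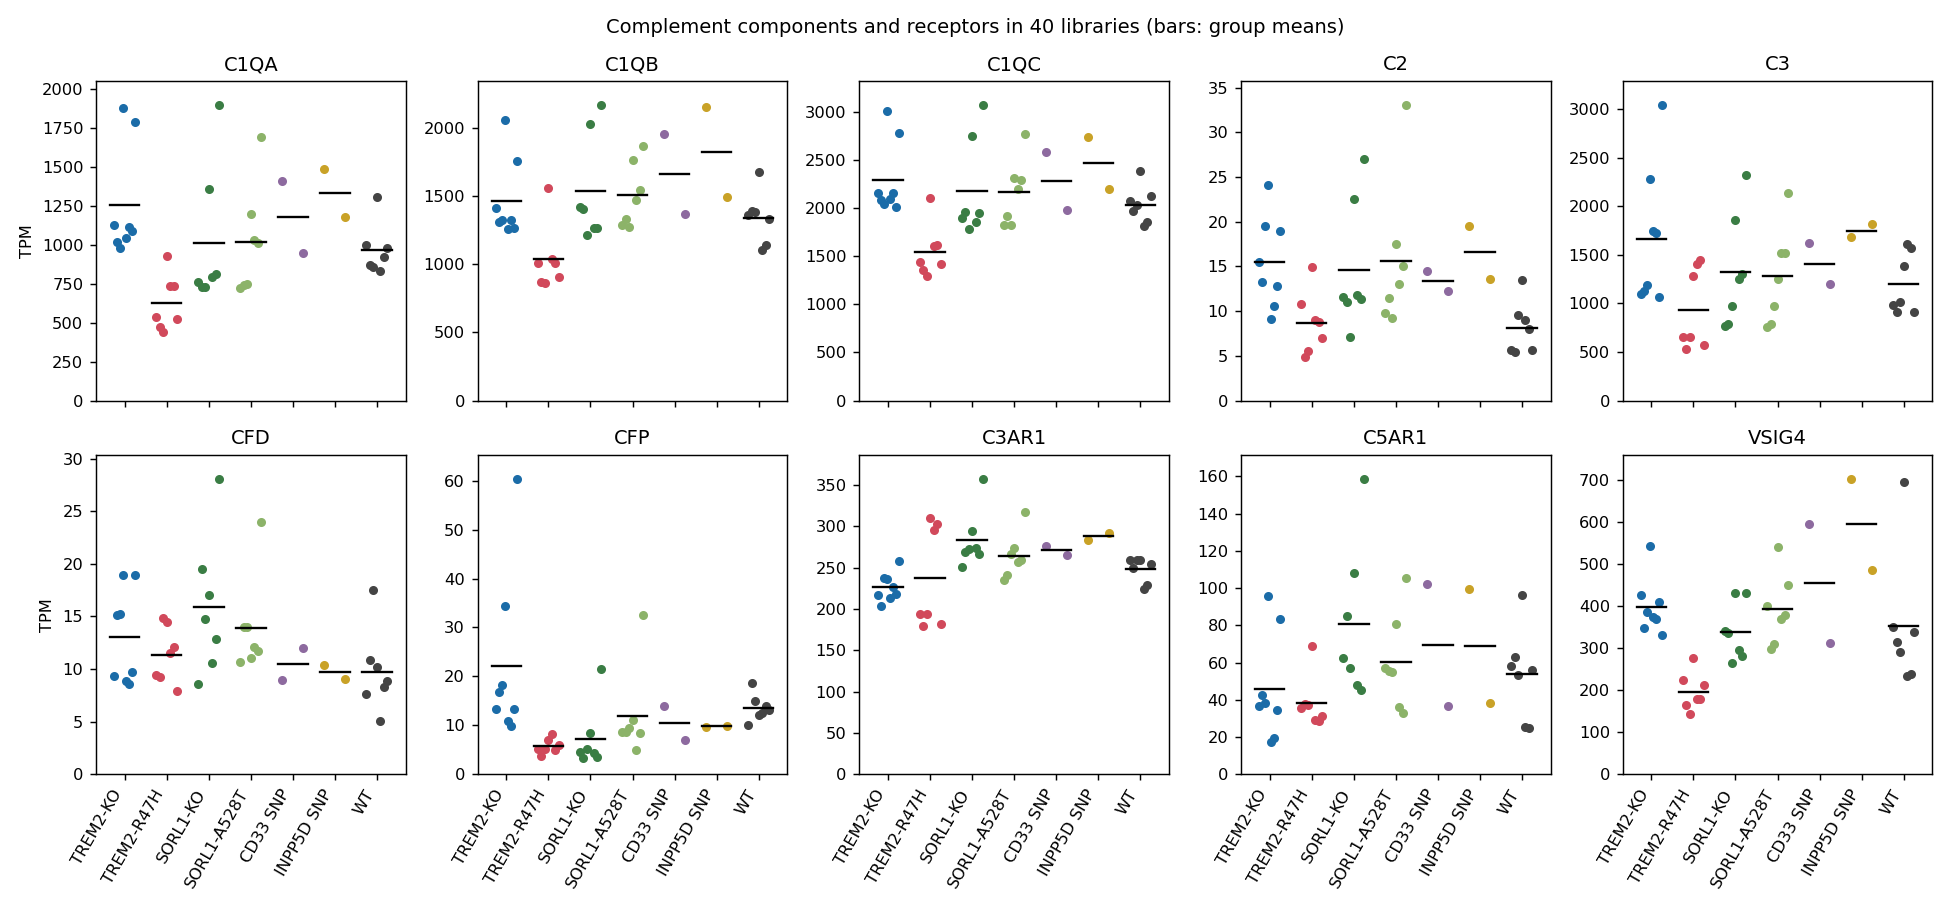
TPM (linear axes from 0) of the 10 complement genes in each of the 40 libraries, 1 point per library and a bar at each group mean. The 7 TREM2-R47H libraries lie below the WT libraries for CFP, and library 8 of TREM2-KO has the highest CFP value, at 60.4 TPM.

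The cells were checked against microglial markers, and the edited genes against the labels. Of 10 microglial markers, 9 passed the filter used below (at least 1 TPM in at least 7 libraries), P2RY12 lay between 10.4 and 81.9 TPM and TMEM119 between 1.04 and 14.6 TPM, whereas SALL1 stayed at or below 0.47 TPM. TREM2 was at 24.6 to 46.5 TPM in TREM2-KO libraries, against 294.5 to 585 TPM in WT libraries. SORL1 was at 12.6 to 21.5 TPM in SORL1-KO libraries, against 18.6 to 43.2 TPM in WT libraries, so those ranges overlap. Fewer cells of a type and less RNA per cell cannot be told apart in such bulk libraries. Summed endothelial and stromal markers varied most in WT, where the sum ran from 189 to 3198 TPM, against 134 to 271 TPM in TREM2-R47H libraries and 194 to 464.5 TPM in TREM2-KO libraries. Of those 11 markers the collagen gene COL3A1 reached 1233 TPM in WT. The endothelial cadherin gene CDH5 stayed at or below 0.17 TPM in the TREM2 and WT libraries. PECAM1 lay between 123.8 and 446 TPM over all 40 libraries, so the lower sums rest largely on it. The median sum was 334.5 TPM in TREM2-KO and 235.2 TPM in TREM2-R47H. The mean log2(TPM + 1) of the 11 markers had the reverse order, with medians of 1.65 in TREM2-KO, 2.05 in TREM2-R47H and 4.47 in WT. By rank correlation over 14855 genes, 3 libraries had the lowest median Spearman values with all other libraries. They were TREM2-KO 8, SORL1-KO 7 and SORL1-A528T 7, at 0.923, 0.931 and 0.940. TREM2-KO 4 was close to them at 0.9415, and the next library was at 0.956. TREM2-KO 4 correlated with TREM2-KO 8 at 0.974. Below, only the first 3 are called the libraries that stood apart, so TREM2-KO 4 was kept when they were left out. Some values of the groups of these 3 without them are given beside the results below.

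The C1q chains were lower in TREM2-R47H cells than in WT cells. C1QA was at 442, 538 and 928 TPM (lowest, median and highest) in the 7 TREM2-R47H libraries, against 829.5, 919 and 1303 TPM in the 7 WT libraries. The ranges met only through library 4, the highest of TREM2-R47H, which lay above the lowest WT libraries. C1QC, the most abundant chain, was at 1293, 1440 and 2106 TPM in TREM2-R47H libraries, against 1814, 2032 and 2384 TPM in WT libraries. C1QB was at 859, 1010 and 1559 TPM in TREM2-R47H libraries, against 1103, 1363 and 1676 TPM in WT libraries. All 3 chains were lower in TREM2-R47H within each of the 7 library numbers that the labels give to both groups. The model was limma on log2(TPM + 1), fitted to all 40 libraries and 14855 genes, with p-values adjusted by Benjamini-Hochberg over those genes and genes called at adjusted p below 0.05. On this scale C1QA fell by 0.66 ± 0.21 (SE, limma adjusted p = 0.0337) and C1QC fell by 0.41 ± 0.12 (adjusted p = 0.022). C1QB changed by -0.39 ± 0.14 and missed the call (limma adjusted p = 0.072). With library numbers as blocks in limma, C1QB was also called, at -0.39 with adjusted p = 0.00444, as it was without TREM2-R47H 4 (-0.49, adjusted p = 0.015). The C1QA call was lost without any of TREM2-R47H 1, 2, 3 or 7 or WT 1, 4 or 7, with changes from -0.65 to -0.59 (limma adjusted p from 0.051 to 0.0883). The C1QC call was lost without TREM2-R47H 2 or 3 or WT 4, with changes from -0.38 to -0.37 (adjusted p from 0.051 to 0.0602).

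The fall was unequal between the chains. C1QC exceeded C1QB and C1QB exceeded C1QA in 39 of 40 libraries, the exception being TREM2-KO 8. The ratio of C1QB to C1QA was 1.37, 1.72 and 1.95 (lowest, median, highest) in TREM2-R47H libraries, against 1.24, 1.36 and 1.61 in WT libraries. In TREM2-KO libraries the ratio was lower, at 0.982, 1.20 and 1.36. It was 1.14, 1.60 and 1.92 in SORL1-KO libraries and 1.105, 1.53 and 1.79 in SORL1-A528T libraries. A median above that of WT was thus not particular to TREM2-R47H. Summed over the chains, C1q made up 0.259% to 0.459% of all TPM in TREM2-R47H libraries, 0.434% to 0.695% in TREM2-KO libraries and 0.375% to 0.536% in WT libraries. No test was run on the ratios or the sums.

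Properdin and VSIG4 showed the lowest levels relative to WT among the 10 genes in TREM2-R47H cells. CFP was at 3.77, 5.23 and 8.28 TPM in TREM2-R47H libraries, against 10.1, 13.1 and 18.7 TPM in WT libraries, and the ranges did not overlap. VSIG4 was at 143, 180 and 276 TPM in TREM2-R47H libraries, against 234, 316 and 696 TPM in WT libraries. Each TREM2-R47H library lay below the WT mean of VSIG4, and the ranges overlapped. In limma CFP fell by 1.12 ± 0.34 (SE, adjusted p = 0.0258) and VSIG4 fell by 0.77 ± 0.18 (adjusted p = 0.00429). The CFP call was lost without TREM2-R47H 2 or WT 2, with a change of -1.04 or -1.05 (adjusted p = 0.0585 or 0.0514), and the VSIG4 call was kept whichever single library was left out. Mean TPM in TREM2-R47H was 0.424 of the WT mean for CFP and 0.559 of it for VSIG4. Within library numbers the difference in VSIG4 ran from -1.33 in library 4 to -0.38 in library 5 on the log2 scale, and that in CFP from -2.04 in library 2 to -0.55 in library 5.

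The other genes of the set did not pass the test in TREM2-R47H against WT. C3 was at 534, 653 and 1451 TPM in TREM2-R47H libraries, against 911, 1010 and 1612 TPM in WT libraries. It was lower in TREM2-R47H within all 7 library numbers, and its change of -0.44 ± 0.28 was not called (SE, limma adjusted p = 0.356). With library numbers as blocks and without the 3 libraries that stood apart, an alternative added after the values were seen, C3 was called at -0.44 (adjusted p = 0.000724), where 19.1% of all tested genes were called lower. C2 changed by 0.07 ± 0.26, CFD by 0.24 ± 0.22, C3AR1 by -0.10 ± 0.10 and C5AR1 by -0.40 ± 0.35 on the log2 scale (SE, limma adjusted p from 0.561 to 0.916). C3AR1 in TREM2-R47H split by library number: libraries 1, 2, 3 and 7 were at 180 to 194 TPM and libraries 4, 5 and 6 at 296 to 310 TPM, against 224.5 to 259 TPM over all WT libraries.

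In this comparison 4 of the 10 genes were called lower and 0 higher, where limma called 8.77% of all tested genes lower and 2.63% higher. The median log2 change of the 10 genes was -0.40, against -0.06 over all tested genes. Markers of other macrophages moved in the same direction. The 7 markers of border-associated macrophages, among them CD163, MRC1 and STAB1, summed to 154, 215 and 386 TPM in TREM2-R47H libraries. The WT sums were 296, 408 and 877 TPM, and 2 of the 6 tested were called lower. These sums rest largely on STAB1, with a median of 335.9 TPM over all 40 libraries, against 451.6 TPM for the whole list. LYVE1 and F13A1 of that list had medians of 0.71 and 0.155 TPM over the same libraries. The 9 monocyte markers summed to 148, 187.5 and 466 TPM in TREM2-R47H libraries, against 308, 493 and 3623 TPM in WT libraries, with 3 of 9 called lower. Of the stromal markers 5 of 9 tested were called lower. With the mean log2(TPM + 1) of the 11 stromal markers as a covariate, VSIG4 alone of the 10 genes was called, while C1QA changed by -0.52 (limma adjusted p = 0.207) and CFP by -1.04 (adjusted p = 0.107). The part of border-associated and monocyte markers in these changes was not tested.

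TREM2-KO did not show this pattern. C1QA was at 975, 1099 and 1878 TPM in TREM2-KO libraries, against 829.5, 919 and 1303 TPM in WT libraries. It was higher in TREM2-KO within all 7 library numbers, with overlapping ranges and a change of 0.35 ± 0.20 that was not called (SE, limma adjusted p = 0.6). C2, the protease precursor, was at 9.12, 14.3 and 24.1 TPM in TREM2-KO libraries, against 5.40, 7.99 and 13.4 TPM in WT libraries. Its change was 0.85 ± 0.25 (SE, limma adjusted p = 0.083). With the library number as a block C2 was called, at 0.81 with limma adjusted p = 0.0314. Without WT library 4, the highest WT value of C2, it was also called, at 0.98 (limma adjusted p = 0.047).

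C3 was at 1067, 1458 and 3048 TPM in TREM2-KO libraries, against 911, 1010 and 1612 TPM in WT libraries, and was higher in TREM2-KO within all 7 numbers. The receptors C3AR1 and C5AR1 were lower in TREM2-KO within all 7 numbers, by at most 0.29 for C3AR1 and 0.69 for C5AR1 on the log2 scale. Without TREM2-KO 8, C3 ran from 1067 to 2285 TPM in TREM2-KO, and without the 3 libraries that stood apart its change was 0.27 ± 0.24. That fit gave 0.27 ± 0.17 for C1QA, 0.19 ± 0.21 for CFP and -0.46 ± 0.32 for C5AR1 (SE), none of them called. In the fit of all libraries neither C3 (0.41 ± 0.27) nor C3AR1 (-0.13 ± 0.10) nor C5AR1 (-0.31 ± 0.34) was called. CFP in TREM2-KO ran from 9.95 to 60.4 TPM, with a median of 15.1, and without library 8 it ran from 9.95 to 34.5 TPM. C1QB changed by 0.12 ± 0.14, C1QC by 0.16 ± 0.12, CFD by 0.40 ± 0.22, CFP by 0.43 ± 0.33 and VSIG4 by 0.26 ± 0.18 (SE), and none was called. In TREM2-KO against WT limma called 0 of the 10 genes higher and 0 lower, where it called 0.283% of all tested genes higher and 1.33% lower. At an unadjusted p below 0.05 limma found 1 of the 10, C2, and 10.6% of all tested genes. Of the marker lists, 3 of 9 stromal markers tested were called lower in TREM2-KO and 1 of 6 border-associated markers higher, and their part was not tested.

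**Figure D2:**
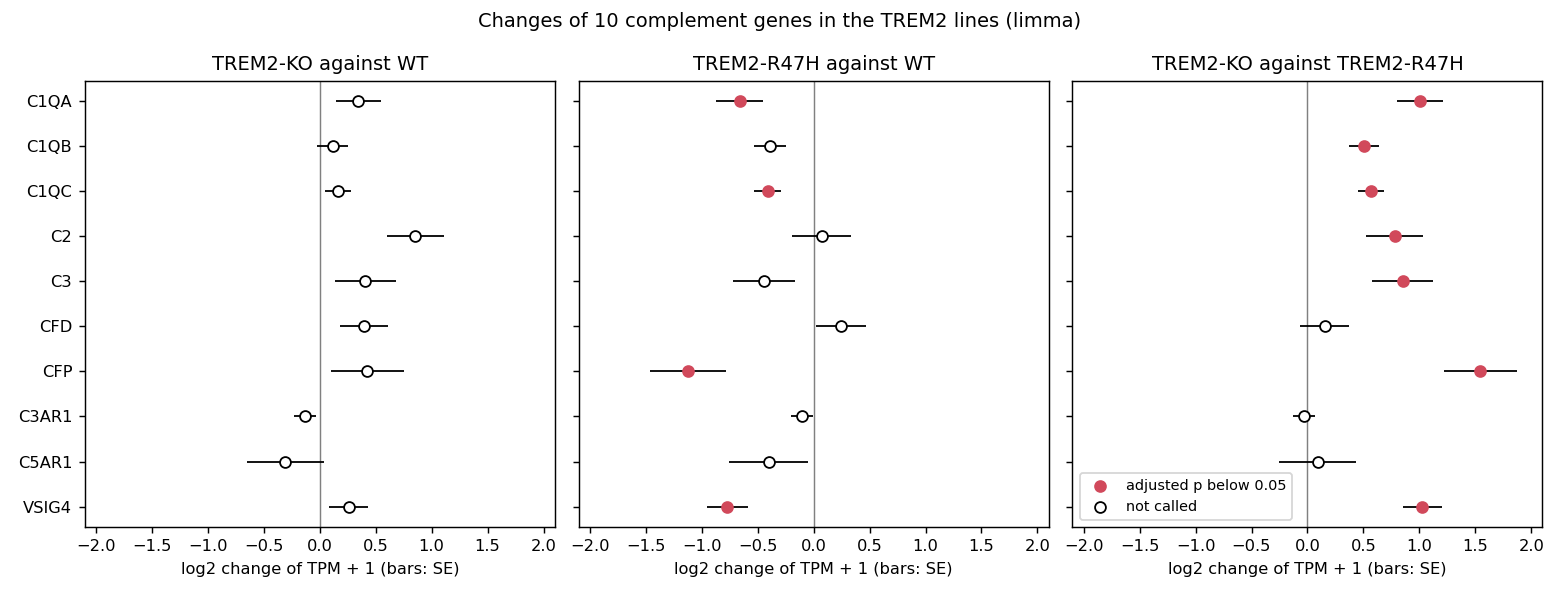
Log2 change of TPM + 1 with its SE for the 10 complement genes in TREM2-KO against WT, TREM2-R47H against WT and TREM2-KO against TREM2-R47H; filled points have a limma adjusted p below 0.05. In the third panel 7 genes are filled, from C1QB at 0.51 to CFP at 1.55.

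The most genes of the set were called between the 2 TREM2 edits. In TREM2-KO against TREM2-R47H 7 of the 10 genes were called higher and 0 lower, where limma called 14.7% of all tested genes higher and 6.58% lower. The median log2 change was 0.68 for the 10 genes and 0.06 over all tested genes. C1QA, CFP and VSIG4 did not overlap between the groups. The share of all tested genes without overlap was not counted. VSIG4 was at 332, 380 and 544 TPM in TREM2-KO libraries, against 143, 180 and 276 TPM in TREM2-R47H libraries, and rose by 1.03 ± 0.18 on the log2 scale (SE, limma adjusted p = 4.86e-05). C1QA rose by 1.01 ± 0.20 (limma adjusted p = 0.000354), with a mean 2.01 times that in TREM2-R47H. CFP rose by 1.55 ± 0.33 (limma adjusted p = 0.000649). Without the 3 libraries that stood apart, TREM2-KO 8 among them, the same 7 genes were called, with CFP at 1.31 ± 0.21 (adjusted p = 1.39e-05) and C1QA at 0.93 ± 0.17 (adjusted p = 8.6e-05).

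The other chains of C1q differed less than C1QA. C1QC rose by 0.57 ± 0.12 (limma adjusted p = 0.000444) and C1QB by 0.51 ± 0.14 (adjusted p = 0.00728) in TREM2-KO against TREM2-R47H. C2 rose by 0.78 ± 0.25 (limma adjusted p = 0.0245) and C3 by 0.85 ± 0.27 (adjusted p = 0.0207). The calls of C2 and C3 were lost when some single libraries were left out. For C3 these were TREM2-KO 8 (alone left out, a change of 0.71, limma adjusted p = 0.0588) and TREM2-R47H 2, 3 and 7 (changes of 0.74, 0.78 and 0.75, adjusted p from 0.0516 to 0.0631). For C2 they were TREM2-KO 4 and TREM2-R47H 2 and 3 (changes of 0.69, 0.67 and 0.70, adjusted p from 0.062 to 0.0734). All 7 called genes were higher in TREM2-KO within each of the 7 shared library numbers, C2 by as little as 0.02 in one of them. Those numbers did not pair the groups by the check of residuals given below (r of 0.092 for number 5). CFD (0.15 ± 0.22), C3AR1 (-0.03 ± 0.10) and C5AR1 (0.09 ± 0.34) were not called. Border-associated macrophage markers summed to 483, 601 and 1187 TPM in TREM2-KO libraries, against 154, 215 and 386 TPM in TREM2-R47H libraries, and 6 of the 6 tested were called higher. Monocyte markers summed to 337, 958 and 2385 TPM in TREM2-KO libraries, against 148, 187.5 and 466 TPM in TREM2-R47H libraries, with 7 of 9 called higher. Of the defining border-associated genes, LYVE1 and F13A1 had medians of 1.25 and 0.20 TPM in TREM2-KO libraries, against 0.43 and 0.02 TPM in TREM2-R47H libraries. The part of these markers in the complement values was not tested. Both TREM2 comparisons with WT share the same WT libraries and this one shares the edited libraries with them, so the 3 are not independent.

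In the SORL1 lines properdin had the lowest level relative to WT. CFP was at 3.25, 4.66 and 21.6 TPM in SORL1-KO libraries, against 10.1, 13.1 and 18.7 TPM in WT libraries. Of the 7 SORL1-KO libraries, 6 lay below every WT library and library 7 lay above them all. CFP changed by -1.06 ± 0.34 over all libraries (SE, limma adjusted p = 0.117), and by -1.34 without SORL1-KO 7 (adjusted p = 0.0345). Against SORL1-A528T, where CFP was at 4.98, 8.64 and 32.6 TPM, it was lower in SORL1-KO within all 7 library numbers, with a change of -0.70 ± 0.34 (limma adjusted p = 1). Without the 3 libraries that stood apart that change was -0.72 ± 0.22 (adjusted p = 0.991). C2 was at 7.08, 11.6 and 27.0 TPM in SORL1-KO libraries and at 9.28, 13.1 and 33.1 TPM in SORL1-A528T libraries, against 5.40, 7.99 and 13.4 TPM in WT libraries. Its changes from WT were 0.72 ± 0.26 in SORL1-KO (limma adjusted p = 0.201) and 0.81 ± 0.26 in SORL1-A528T (adjusted p = 0.291). Without the libraries numbered 7, C2 reached 22.5 TPM in SORL1-KO and 17.5 TPM in SORL1-A528T, and without the 3 libraries that stood apart its changes were 0.56 ± 0.23 in SORL1-KO and 0.62 ± 0.23 in SORL1-A528T. CFD changed by 0.64 ± 0.22 in SORL1-KO (limma adjusted p = 0.171) and by 0.50 ± 0.22 in SORL1-A528T (adjusted p = 0.731), and without those 3 libraries by 0.49 ± 0.20 in SORL1-KO and 0.37 ± 0.20 in SORL1-A528T.

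The fitted changes of the C1q chains and C3 in the SORL1 lines were at most 0.17 on the log2 scale in either direction, and none was called. C1QA was at 728, 792 and 1897 TPM in SORL1-KO libraries and 720, 1007 and 1693 TPM in SORL1-A528T libraries, against 829.5, 919 and 1303 TPM in WT libraries. Its change from WT was -0.02 ± 0.21 in SORL1-KO and 0.03 ± 0.21 in SORL1-A528T, and without the 3 libraries that stood apart it was -0.18 ± 0.17 in SORL1-KO and -0.10 ± 0.17 in SORL1-A528T. The C5a receptor C5AR1 was at 45.5, 62.5 and 159 TPM in SORL1-KO libraries, against 24.7, 55.9 and 96.3 TPM in WT libraries, and was higher in SORL1-KO within all 7 numbers without a call (0.57 ± 0.35, limma adjusted p = 0.616). Without SORL1-KO 7 the highest value was 108 TPM and, leaving out the 3 libraries that stood apart, the change was 0.39 ± 0.34. The numbers did not pair SORL1-KO with WT libraries by the check of residuals given below (r of -0.105 for number 7). VSIG4 changed by 0.02 ± 0.18 in SORL1-KO and 0.23 ± 0.18 in SORL1-A528T, C3AR1 by 0.19 ± 0.10 and 0.09 ± 0.10 in the same order, and C5AR1 by 0.19 ± 0.35 and CFP by -0.36 ± 0.34 in SORL1-A528T, none of them called. Limma called 0 of the 10 genes in SORL1-KO against WT, where it called 0.256% of all tested genes higher and 0.835% lower. At an unadjusted p below 0.05 it found 3 of the 10, C2 and CFD higher and CFP lower, and 10.8% of all tested genes. It called 0 of 10 in SORL1-A528T against WT, where 0.0269% of all tested genes were called higher and 0.0202% lower, with 2 of 10 and 5.95% of all tested genes at an unadjusted p below 0.05. In SORL1-KO against SORL1-A528T the changes ran from -0.21 ± 0.18 for VSIG4 to 0.38 ± 0.35 for C5AR1 (SE), with C1QA, C1QB, C1QC, C2, C3, CFD and C3AR1 in between and CFP as given above. Limma called 0 of 10 there, where 0.0337% were called higher and 0.0606% lower, with 1 of 10 and 2.24% of all tested genes at an unadjusted p below 0.05.

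The libraries numbered 7 of both SORL1 lines were high for nearly the whole set. SORL1-KO 7 lay above the other 6 libraries of its group for 9 of the 10 genes, by 4.76 times their median for CFP, 2.66 times for C5AR1 and 2.44 times for C1QA. SORL1-A528T 7 likewise lay above the others for 9 of 10, by 3.79 times for CFP and 2.69 times for C2. VSIG4 was the exception in both, at 430 TPM in SORL1-KO 7 and 449 TPM in SORL1-A528T 7, within the range of the others. TREM2-KO 8 lay above its group for C3 (2.56 times the median of the others), CFP (4.50 times) and C3AR1 (1.19 times), and below it for VSIG4. Library 7 of TREM2-KO, TREM2-R47H and WT showed no such rise.

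With 2 libraries each, the CD33 SNP and INPP5D SNP groups gave wide errors. C1QA was at 943.5 and 1409 TPM in CD33 SNP libraries and at 1174 and 1484 TPM in INPP5D SNP libraries, against 829.5 to 1303 TPM in WT libraries. VSIG4, the C3b receptor, was at 313 and 596 TPM in CD33 SNP libraries and at 485 and 703 TPM in INPP5D SNP libraries, against 234 to 696 TPM in WT libraries. Its change in INPP5D SNP was 0.82 ± 0.28 (SE, limma adjusted p = 0.606). C2 was at 13.6 and 19.6 TPM in INPP5D SNP libraries, both above the highest WT library at 13.4 TPM, with a change of 0.99 ± 0.39 (limma adjusted p = 0.647). C3 and C3AR1 in INPP5D SNP also lay above every WT library, C3 at 1681 and 1818 TPM, against at most 1612 TPM in WT, and C3AR1 at 284 and 292 TPM, against at most 259 TPM in WT. CFP in INPP5D SNP lay below every WT library, at 9.69 and 9.91 TPM, against at least 10.1 TPM in WT. In CD33 SNP, C3AR1 lay above every WT library, at 265 and 276 TPM. The share of all tested genes whose libraries in these groups lay outside the WT range was not counted. By the check of residuals given below, library 1 of both SNP groups was most like WT 4, a library high for several of these genes. VSIG4 was at 703 TPM in INPP5D SNP 1 and 696 TPM in WT 4, whereas C2 was at 19.6 and 13.4 TPM in the same order. The part of this likeness in the SNP values was not tested. Changes from WT in INPP5D SNP were 0.47 for C1QA, 0.43 for C1QB, 0.27 for C1QC, 0.58 for C3, 0.06 for CFD, -0.42 for CFP, 0.22 for C3AR1 and 0.33 for C5AR1, with SEs from 0.15 for C3AR1 to 0.53 for C5AR1, and none was called. In CD33 SNP they ran from -0.39 for CFP to 0.71 for C2, with C1QA, C1QB, C1QC, C3, CFD, C3AR1, C5AR1 and VSIG4 in between and the same SEs, and none was called. Summed stromal markers were at 834 and 2196 TPM in INPP5D SNP libraries, against a median of 740 TPM in WT libraries. Limma called 0 of the 10 genes in CD33 SNP against WT, where it called 0% of all tested genes higher and 0% lower, and 0 of 10 and 4.18% of all tested genes were at an unadjusted p below 0.05. It called 0 of 10 in INPP5D SNP against WT, where 0.00673% of all tested genes were called higher and 0.0269% lower, with 2 of 10 and 7.32% of all tested genes at an unadjusted p below 0.05.

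The library number in the labels went with the level of most of the 10 genes across the 5 larger groups. Library 4 was the highest of libraries 1 to 6 in all 5 groups for C1QA, C1QB, C1QC, C2, C5AR1 and VSIG4. C3 and the receptor for C5a ran in opposite directions in libraries 5 and 6. C3 in libraries 5 and 6 lay above libraries 1 to 3 in 5 of 5 groups, with a ratio of 1.53 to 2.19 to their median. C5AR1 in the same libraries lay below libraries 1 to 3 in 5 of 5 groups, with a ratio of 0.429 to 0.782. In WT, C3 was at 1612 and 1576 TPM in libraries 5 and 6, against 916 to 1010 TPM in libraries 1 to 3, while C5AR1 was at 25.5 and 24.7 TPM, against 53.4 to 62.9 TPM. The labels do not say what the numbers stand for. The C1QA difference between TREM2-R47H and WT also moved with the number, from -0.96 in library 3 to -0.18 in library 5 on the log2 scale. Among libraries 1 to 3 alone, a choice made after the values were seen, 8 of the 10 genes were called lower in TREM2-R47H against WT, where 15.4% of all tested genes were called lower, C3 among them at -0.67 (limma adjusted p = 0.000461) and C5AR1 at -0.65 (adjusted p = 0.000993).

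**Figure D3:**
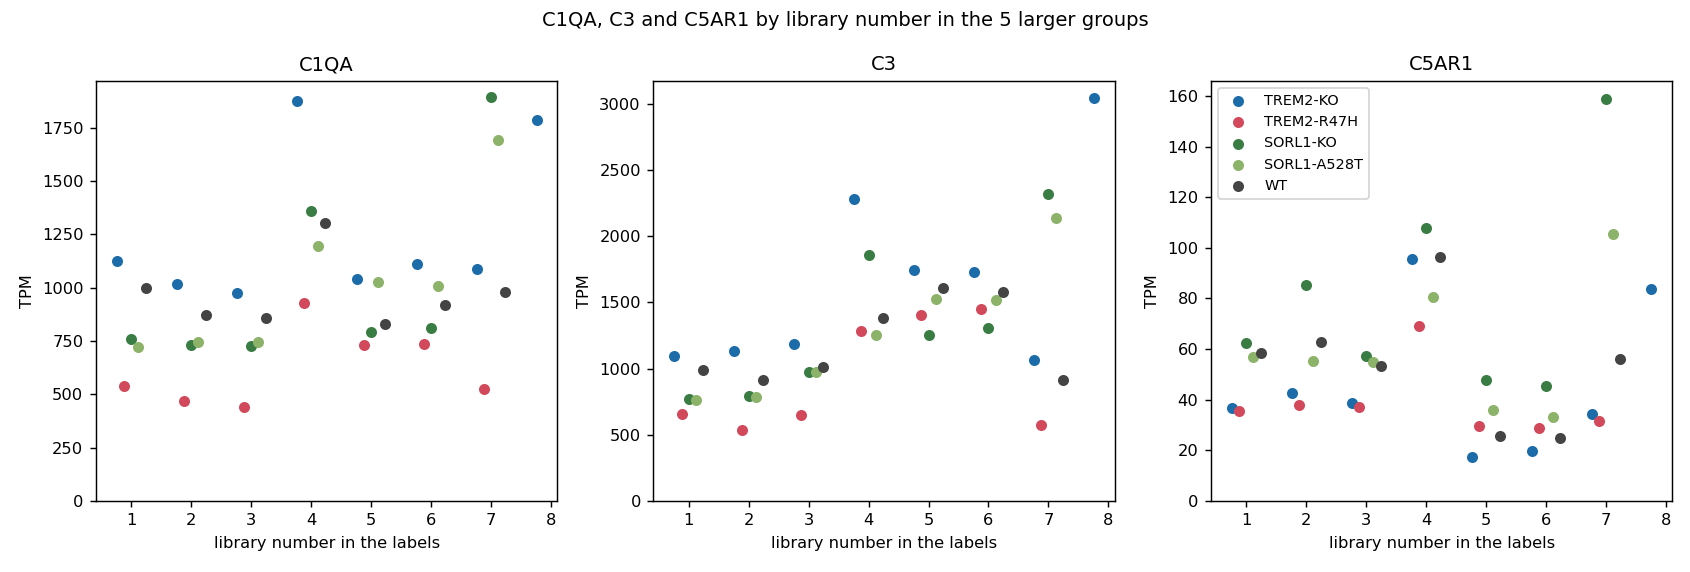
TPM of C1QA, C3 and C5AR1 (linear axes from 0) by the library number in the labels, 1 point per library and a colour for each of the 5 larger groups. Libraries 5 and 6 are above libraries 1 to 3 for C3 and below them for C5AR1 in 5 of 5 groups.

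Across the 40 libraries the C1q chains varied together, and the other genes followed them to differing degrees. Pearson's r of log2(TPM + 1) was 0.970 for C1QA with C1QC, 0.963 for C1QB with C1QC and 0.899 for C1QA with C1QB. VSIG4 had an r of 0.798 to 0.859 with the 3 chains, C2 of 0.771 to 0.789, C3 of 0.670 to 0.854, CFP of 0.529 to 0.733, C5AR1 of 0.528 to 0.753, C3AR1 of 0.536 to 0.628 and CFD of 0.349 to 0.436. C3 and C5AR1 had an r of 0.233 with each other. These are descriptions over libraries that share groups, library numbers and the sum of TPM. Over 14854 other genes, the gene most like C1QA was FCGR2A (r = 0.986), the one most like C3 was H1F0 (0.968), and the one most like C5AR1 was APMAP (0.945). KCNK6 was most like CFP (0.901), HEXA most like C2 (0.870), SCPEP1 most like C3AR1 (0.862) and RAB42 most like CFD (0.771). VSIG4 was most like FCER1G (0.915), followed by the scavenger receptor gene CD163 (0.906), which is also a listed border-associated marker.

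Much of the rest of the complement system was scarce in these cells. Of 54 other complement genes listed by role, 19 passed the filter. Among other initiating proteins 2 of 13 passed, C1S and FCN1. The proteases C1R and C1S, which C1q needs to cleave C2 and C4, had WT medians of 0.38 and 1.38 TPM, and C4A and C4B, near-identical copies whose reads cannot be split with certainty, had 0.67 and 0.47 TPM. Factor B (CFB), the partner of factor D, had a WT median of 0.33 TPM. Among the terminal proteins that form the membrane attack complex 1 of 7 passed, C5, at 1.42 to 3.57 TPM in WT libraries. Among regulators 8 of 25 passed, with the membrane inhibitors CD59 at a WT median of 162 TPM and CD46 at 70.5 TPM. Among other receptors 8 of 9 passed, including ITGB2, the shared chain of complement receptors 3 and 4, at a WT median of 1040 TPM.

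**Figure D4:**
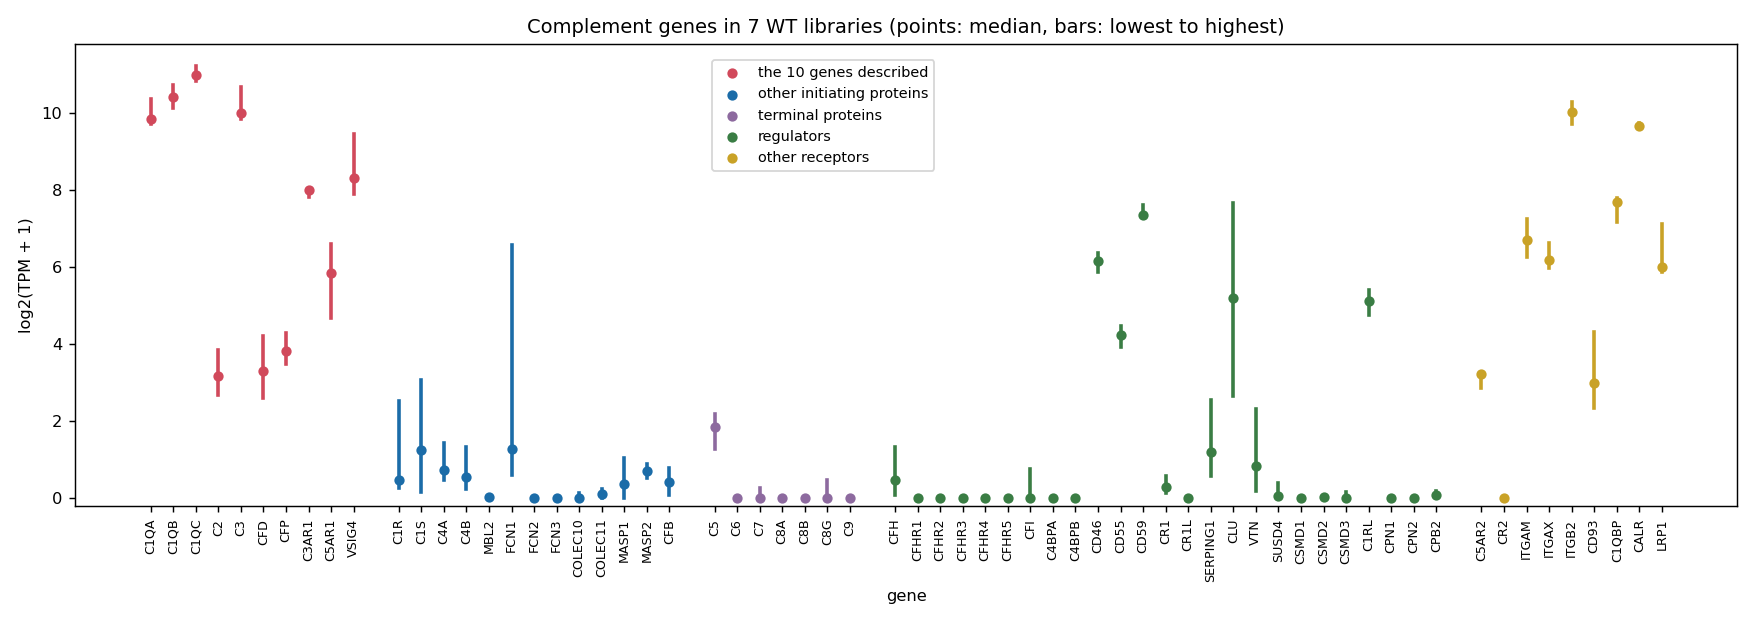
Log2(TPM + 1) of the 10 complement genes described and the 54 others listed, by role, in the 7 WT libraries; points are medians and bars run from the lowest to the highest library. C1QC has the highest median of the set, and 2 of 13 other initiating proteins and 1 of 7 terminal proteins passed the filter.

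Among the 19 others, 4 were called lower and 0 higher in TREM2-R47H against WT, where 8.77% of all tested genes were called lower. CD93, a receptor of macrophages and endothelial cells that was once described as a C1q receptor, was at 1.33, 1.95 and 2.39 TPM in TREM2-R47H libraries, against 4.03, 6.93 and 18.7 TPM in WT libraries, and fell by 1.60 ± 0.28 on the log2 scale (SE, limma adjusted p = 0.00014). C1RL fell by 0.84, ITGAM (the alpha chain of complement receptor 3) by 0.46 and CD59 by 0.43 (limma adjusted p from 0.00613 to 0.0225). In TREM2-KO against WT 1 of the 19 was called, where 1.33% of all tested genes were called lower. ITGAX, the alpha chain of complement receptor 4, was at 43.5, 48.7 and 76.5 TPM in TREM2-KO libraries, against 62.3, 71.9 and 98.1 TPM in WT libraries, and fell by 0.49 ± 0.11 (SE, limma adjusted p = 0.0109). In TREM2-KO against TREM2-R47H 7 of the 19 were called higher and 1 lower, where 14.7% of all tested genes were called higher and 6.58% lower. The higher ones were 1 of 2 initiating proteins, 3 of 8 regulators and 3 of 8 receptors. CD93 rose by 2.18, ITGAM by 0.83, CD59 by 0.52, C1RL by 0.91 and FCN1, a lectin pathway starter made by monocytes, by 2.49, while ITGAX fell by 0.41 (limma adjusted p from 1.97e-07 to 0.0237). FCN1 is also in the monocyte marker list and stayed at or below 0.54 TPM in TREM2-R47H libraries. In the other comparisons limma called 0 of the 19.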

How the data were processed

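Total RNA of 40 libraries was read on directional paired-end libraries, per the labels' protocols, with 45.13 M reads on average (39.2 to 64.6 M). The authors deposited TPM, 1 column per library, and all columns matched a sample label. Tools listed in the submitters' processing notes are RSEM 1.3.1, STAR 2.7, cutadapt 1.18 and DESeq2. Neither label nor header names the genome build or annotation. The TPM hold no counts, so depth and counting error per gene are unknown here and no count test was run. Columns summed to 999999.15 to 1000000.76. Ensembl IDs were matched to GENCODE 29 (94.2% gave a symbol).

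All tests used limma 3.58.1 (R 4.3.3). Its input was log2(TPM + 1), which understates changes of low genes, with trended and robust variances, 1 mean per group and no block, for 8 comparisons. Genes reaching 1 TPM in 7 or more libraries entered (14855). P-values are two-sided. The fit was also run on simulated data with independent normal noise for each gene. Those data held no effect of library number and no libraries that stood apart, so they cannot show how such features affect the calls. Tables and plots used pandas 2.3.3 and matplotlib 3.10.9. The genes, other lists, tests and alternatives were chosen with earlier results of these data known. All 10 genes are named in each comparison, and of the 54 others the called ones, at most 6 with the lowest adjusted p; markers named were chosen after their values were seen. Alternatives changed the pseudocount (0.1 or 5 TPM), the filter, the scaling, the libraries, a stromal covariate and the block.

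Library numbers were taken to pair samples where every same-number correlation of residuals was above 0.1. This held for TREM2-KO against WT (0.114 to 0.312), TREM2-R47H against WT (0.140 to 0.278) and SORL1-KO against SORL1-A528T (0.306 to 0.785). In each of these comparisons some libraries matched another number better. TREM2-KO 1 matched WT 7 at 0.192, against 0.114 for its own number. TREM2-R47H 1 matched WT 3 at 0.176, against 0.142. SORL1-KO 4 matched SORL1-A528T 7 at 0.540, against 0.329. Pairing by number is therefore uncertain.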

Additional observations from a re-analysis of the deposited data

Results flagged for a closer look

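Dixon's test was run on TPM without a log in 50 sets of 7 or 8 libraries, 1 gene in 1 group each. Chance marks about 1 in 20 where values are normal and sets independent. These sets share libraries and correlated genes, so that rate cannot be set against the result. The test marked 11 sets whose highest library stood far from the others. Of these, 6 came from library 4: C1QA in WT (1303 TPM, with the others at 829.5 to 997.5), C1QB in TREM2-R47H (1559 TPM, others 859 to 1035), C1QC in TREM2-R47H (2106 TPM, others 1293 to 1614), C5AR1 in TREM2-R47H (69.1 TPM, others 28.8 to 37.7), VSIG4 in TREM2-KO (544 TPM, others 332 to 426) and VSIG4 in WT (696 TPM, others 234 to 350.0).

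The other 5 came from library 7 of the SORL1 lines. CFP stood at 21.6 TPM in SORL1-KO (others 3.25 to 8.55) and C3AR1 at 357 TPM in SORL1-KO (others 251 to 294). In SORL1-A528T, CFP stood at 32.6 TPM (others 4.98 to 11.2), C2 at 33.1 TPM (others 9.28 to 17.5) and CFD at 24.0 TPM (others 10.7 to 14.0). No lowest library was marked.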

How the results depend on the processing

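Of 1980 values of the 10 genes under alternatives, 1914 kept their direction, where called, and their side of the threshold, 35 became called, 30 lost their call and 1 reversed; 106 uncalled values changed sign. Of the 10 genes, the counts called were as follows. In TREM2-R47H against WT the count of 4 became 1 when low genes were kept, 2 under scaling by median ratios, 1 with the stromal covariate and 8 with libraries 1 to 3 alone, and 6, C3 among them, with the block and without the 3 libraries that stand apart. The shares of all tested genes called lower were 2.88%, 5.58%, 4.71%, 15.4% and 19.1% in that order. Leaving out 1 library gave a count of 1 to 5. VSIG4 kept its call in all of these. C1QA was lost at an adjusted p of 0.0625 under that scaling and 0.0764 when low genes were kept, and C1QC at 0.0604 and 0.0504. C1QA was also lost when libraries 5 and 6 were averaged (0.0531). The count was 1 (VSIG4) without TREM2-R47H replicate 2, and 2 without TREM2-R47H replicate 3 or WT replicate 4.

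In TREM2-KO against WT the count of 0 became 1 with the replicate block, where 1.11% of all tested genes were called higher and 2.84% lower. It became 1 with the block and without the 3 libraries that stand apart, where 2.71% were called higher and 3.94% lower. With libraries 1 to 3 alone it became 2, where 0.66% were called higher and 1.32% lower. Leaving out 1 library gave 0 to 1. In SORL1-KO against WT the count of 0 became 2 with the replicate block (CFP and CFD), 1 without the 3 libraries, 1 with both, 1 with libraries 1 to 3 alone, and 0 to 1 leaving out 1 library. The block alone called 1.55% of all tested genes higher and 3.4% lower in that comparison. Without the 3 libraries the shares were 0.195% and 0.66%, with both 1.74% and 4.85%, and with libraries 1 to 3 alone 0.963% and 1.86%. In CD33 SNP against WT the count of 0 became 3 with the block and without the 3 libraries. There 1.53% of all tested genes were called higher and 4.27% lower. In INPP5D SNP against WT the count of 0 became 5 with the block, where 4.09% of all tested genes were called higher and 6.46% lower. It became 6 with the block and without the 3 libraries, where 8.44% were called higher and 14.1% lower. The numbers did not pair SORL1-KO, CD33 SNP or INPP5D SNP libraries with WT libraries by the check of residuals. CD33 SNP 1 and INPP5D SNP 1 matched WT 4 best, at 0.317 and 0.278, against -0.025 and 0.102 for their own number. CD33 SNP 2 matched WT 5 best (0.162, against 0.040) and INPP5D SNP 2 matched WT 6 best (0.344, against 0.021). The block thus set these SNP libraries beside less similar WT libraries, and its counts there cannot be read as results. In TREM2-KO against TREM2-R47H the count of 7 stayed between 5 and 8, with C2 lost when low genes were kept (adjusted p = 0.0582) and C3 lost in a fit of the 2 groups alone (0.0524). The share of all tested genes called higher was 4.88% with low genes kept and 11.6% in the fit of the 2 groups. It was 14.8% with libraries 1 to 3 alone and 21.7% with the block and without the 3 libraries. The reversed value is C3AR1 in that comparison, at 0.21 with libraries 1 to 3 alone. In SORL1-A528T against WT and SORL1-KO against SORL1-A528T the count stayed at 0. The numbers were taken to pair the samples in 3 comparisons. There the block in the fit of all libraries changed no call beyond C2 in TREM2-KO and C1QB in TREM2-R47H. The causes were not tested. Alternatives that use subsets of libraries, the block without the 3 libraries and single libraries left out of the larger groups were chosen after seeing the data. Replicate spread, 2 libraries in the CD33 SNP and INPP5D SNP groups and the lack of counts limit what these TPM can show.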
